A study of Mus musculus with 6 samples.

Results

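Tril and 9 genes of Toll-like receptor signalling were followed from passage 3 to passage 20 of mouse chemically induced cardiovascular progenitor cells (ciCPCs). The 10 genes, out of 53801 with an entry in the count files, were taken by name and matched through their Ensembl identifiers. They are the co-receptor genes Tril, Cd14 and Ly96, the receptor genes Tlr2, Tlr3 and Tlr4, the adaptor genes Myd88 and Ticam1, and Nfkb1 and Nfkbia of the NF-κB module. The members were chosen by name with the fold changes between the passages of these same libraries known, so their levels and differences are a description and carry no p-value. Where a member is said to lie past the threshold of the test over all genes, this describes its place among those genes and supports nothing. The wider gene lists were also drawn up with earlier results known, so the p-values of their genes are no independent evidence either.

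Toll-like receptors are membrane receptors that recognise molecules of microbes and, in some reports, fragments of damaged matrix. A ligand brings receptors together, adaptors bind their inner domain, and a chain of kinases and ubiquitin ligases releases NF-κB from its inhibitors, so that it enters the nucleus and switches on genes of inflammation. Leukocytes are the best known users of the pathway, but fibroblasts and other stromal cells carry parts of it. TRIL, a transmembrane protein with leucine-rich repeats, is known from the brain as a partner of the receptors encoded by Tlr4 and Tlr3.

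The cells came from cardiac reprogramming of fibroblasts, from which colonies were picked and then passaged. All 6 libraries had the wild type genotype and a strain background that mixes C57BL/6 and 129J/SvE, and all cells had grown with BMP4, Activin A, the Wnt pathway activator CHIR99021 and the FGF receptor inhibitor SU5402. The design set 3 libraries at passage 3 against 3 at passage 20 and asked how the cells differ between an early and a late passage. The labels do not say whether the replicates were separate cultures or whether both passages came from 1 colony, so p-values measure the spread between these libraries, which may be technical, and passage cannot be told apart from culture or library batch.

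Libraries held 11387738 to 17721788 counts in genes. Levels are CPM, which are counts scaled to the size of the library, after TMM factors that set the bulk of genes level between libraries, and are given as mean ± SD with n = 3 per passage. No molecular identifiers are named, so an interval or floor made from counts holds the error of counting alone. Of 15143 genes with enough counts to test, 74.3% passed the threshold (p under 0.05 after Benjamini-Hochberg adjustment of edgeR's quasi-likelihood test), 37.0% as higher and 37.3% as lower at passage 20, and the median log2 fold change was -0.01. With library sizes only the median was -0.34, so small changes are relative to the scaling. In that setting 3528 of all tested genes rose and 8273 fell. List counts with library sizes only are to be set beside these. In 77.5% of tested genes the ranges of the passages did not overlap, with 38.3% higher and 39.3% lower at passage 20. Passage 20 replicate 3 stood apart from the other libraries of its passage, with a mean chi-square per gene of 11.7 and 9.32 against them, where other pairs within a passage lay between 1.77 and 2.72. All 10 markers of cardiac progenitors listed as a check of the label were detected, and 5 of them rose and 5 fell. Their summed levels were 898 to 926 CPM at passage 3 and 780 to 882 CPM at passage 20. Pdgfra, named after its values were seen, made up a large part of the sum at passage 3. It had 17014 counts there and 4337 in the smaller libraries of passage 20, so the sum hides changes of single markers. The 6 markers of fibroblasts summed to 13057 to 13792 CPM at passage 3 and 27358 to 32575 CPM at passage 20. Collagens make up most of that sum, and 5 of the 6 rose while Thy1, a surface antigen gene named after its values were seen, fell from 13.1 ± 0.190 to 5.64 ± 1.68 CPM.

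The promoters of Tril and Nfkbia are shown first, because these members had the largest differences in opposite directions. Each line gives the 250 bases before the RefSeq transcription start on the gene's own strand in GRCm38.p6, 5′ to 3′, and capitals mark a match to the NF-κB consensus, searched on both strands. The Tril window, at chr6:53820826-53821075 on the minus strand, had a GC content of 63.2% and 20 CG pairs and held no such match. The Nfkbia window, at chr12:55492648-55492897 on the minus strand, had a GC content of 59.2% and 8 CG pairs, with a match at positions -29 to -20 from the start.
Tril: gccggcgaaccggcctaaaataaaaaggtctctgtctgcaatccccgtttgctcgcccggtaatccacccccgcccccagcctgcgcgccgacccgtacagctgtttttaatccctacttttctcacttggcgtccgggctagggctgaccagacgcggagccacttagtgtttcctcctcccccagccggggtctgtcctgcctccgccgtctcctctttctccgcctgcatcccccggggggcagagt
Nfkbia: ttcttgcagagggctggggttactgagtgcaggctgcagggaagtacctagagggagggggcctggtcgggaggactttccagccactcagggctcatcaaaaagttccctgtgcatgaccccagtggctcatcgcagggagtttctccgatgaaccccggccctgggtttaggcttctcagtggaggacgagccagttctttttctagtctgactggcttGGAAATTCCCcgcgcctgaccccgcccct

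The consensus was then searched in windows of 300 bases, from 250 before to 50 after each start. RefSeq windows were at hand for Tril, Tlr2, Tlr3, Myd88, Ticam1 and Nfkbia, and those of Tlr4, Cd14, Ly96 and Nfkb1 were not searched. A match stood in 3 of these 6 members, namely Nfkbia, Tlr2 and Tlr3, and in 5.14% of the 27025 genes with a window. Among wider pathway genes that rose it stood in 13 of 39, and among those that fell or did not pass in 4 of 33. Known NF-κB targets were put on the wider list on purpose, as 1 of its 12 lists. Matches among genes that rose also stand in other lists, as in Nfkb2, Rel, Tnfaip3 and Irf1. Those lists can hold NF-κB targets too, so nothing is read from 13 of 39 beside 4 of 33. A match describes the letters only. The following lines show 1 match per gene, with 5 flanking bases on each side in lower case, so that the variation of the motif can be read. They are from the members with a match and from some wider pathway genes, all picked among those that rose. Matches not printed stand elsewhere in Tlr2, in Map3k7 and Traf3, which fell, in Nfkbid and Nfkbie, which did not pass, and in other wider genes. In GRCm38.p6 the printed matches of the members lie at chr12:55492667-55492676, chr3:83841771-83841780 and chr8:45410582-45410591, all in genes on the minus strand. The last stands at positions -211 to -202 from the RefSeq start and inside the annotated span of Tlr3. The printed matches of the other genes lie at chr19:46304698-46304707 (Nfkb2, plus strand), chr11:23771052-23771061 (Rel, minus), chr10:19015526-19015535 (Tnfaip3, minus), chr5:90891174-90891183 (Cxcl1, plus) and chr5:92348983-92348992 (Cxcl10, minus).
Nfkbia: ggcttGGAAATTCCCcgcgc
Tlr2: acctgGGGAATTCCCacacg
Tlr3: tttctGGGAGTTTCCtgctt
Nfkb2: gtcacGGGAATTCCCcccct
Rel: gcagcGGGAAATCCCccccc
Tnfaip3: acgcgGGGACACCCCggggc
Cxcl1: actccGGGAATTTCCctggc
Cxcl10: tacagGGGACTTCCCtcggg
The core of the interferon-stimulated response element, spelled GAAANNGAAA and searched on both strands and counted whether or not it overlapped the first motif, stood in 3.99% of genes and in 1 of the 6 members, Myd88, at positions -40 to -31. Among the wider pathway genes it stood in 2 of the 39 that rose and in 6 of the 33 that fell or did not pass.

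Among the 10 genes, 5 were past the threshold as higher, 2 as lower and 3 did not pass, beside 74.3% of all tested genes in either direction, 37.0% higher and 37.3% lower. The ranges of the passages were apart in 5 members that were higher, beside 38.3% of tested genes, and in 2 that were lower, beside 39.3%. Since the members were named with this comparison known, nothing is read from these counts. The median log2 fold change of the 10 was 0.32. In the plot of levels by library Tril stands alone in the size of its drop, and Nfkbia is the member with the widest gap in the other direction. The gaps between the passages are smaller for the other genes, although the points of the faint genes Cd14, Tlr3 and Tlr4 spread widely.

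**Figure D1:**
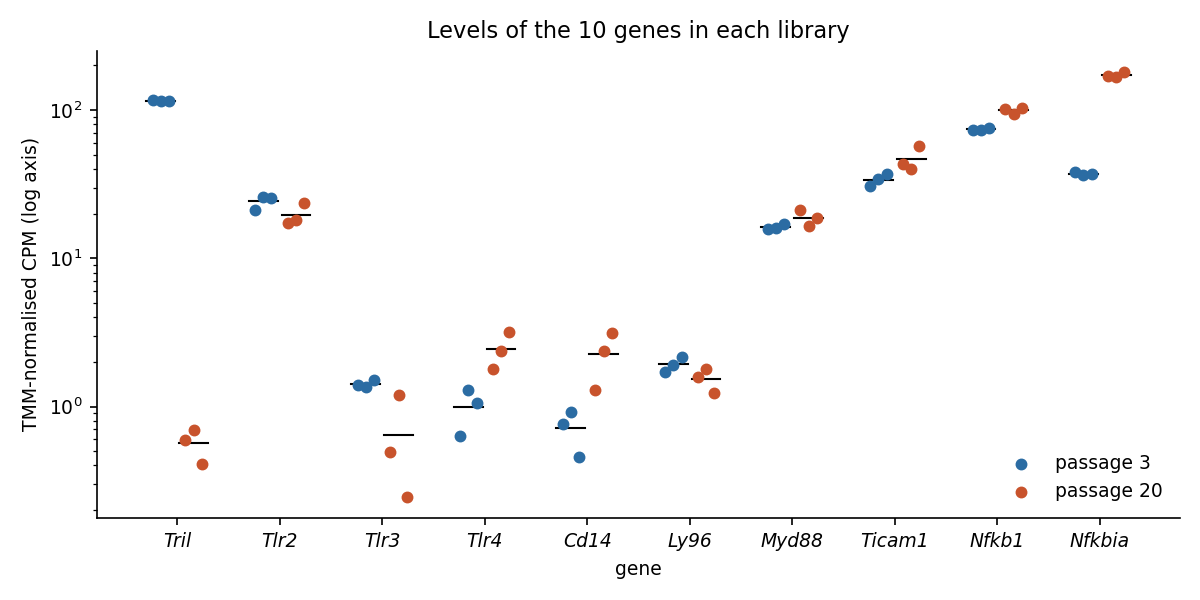
TMM-normalised CPM (log axis) of the 10 genes in each library, blue for passage 3 and orange for passage 20, with a bar at each mean. The Tril points lie at 115 to 117 CPM at passage 3 and at 0.411 to 0.696 CPM at passage 20, while the Nfkbia points lie at 36.3 to 37.9 and 166 to 181 CPM.

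Tril (ENSMUSG00000043496, chromosome 6, 53815468 to 53820830, minus strand) was the member that differed most. It stood at 117, 115 and 116 CPM in the passage 3 libraries and at 0.594, 0.696 and 0.411 CPM in those of passage 20. The passage 3 values were nearly equal and no passage 20 library came near them. The means were 116 ± 1.20 and 0.567 ± 0.144 CPM, so that the level was 205-fold lower at passage 20 (log2 fold change -7.68, SE 0.120, and -5.99 on the authors' deposited log2 values). Behind these values lay 1847, 1861 and 2296 counts at passage 3 and 6, 7 and 5 at passage 20. In bulk RNA, fewer cells that carry a transcript and less RNA per cell cannot be told apart, which holds for each gene here.

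Tril overlaps on the opposite strand a pair of loci that both carry the name Gm16499, and the sources used here do not give the strand setting of the counting. The antisense locus (ENSMUSG00000108175), which shares 293 exonic bases with Tril, had 22 counts at passage 3 and 0 at passage 20. The long noncoding locus (ENSMUSG00000108255, chromosome 6, 53819974 to 53822150), which shares 857 exonic bases and spans the Tril promoter window shown above, had 130 counts at passage 3 and 0 at passage 20, and was at least 27.0-fold lower against a floor of 3 counts over the group. Whether reads of Tril and of these loci were told apart in the shared bases is therefore not known.

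The surroundings of Tril on chromosome 6 moved both ways. Of 20 genes with counts within 1000 kb of Tril, 11 were tested, and of these 5 rose and 6 fell, with a median log2 fold change of -0.25. Among all tested genes 37.0% rose and 37.3% fell, so nothing particular to this region is read from the count. Creb5, a transcription factor gene and the nearest tested protein-coding gene on that side, rose from 13.2 ± 0.247 to 30.7 ± 2.98 CPM, 2.34-fold higher (edgeR's quasi-likelihood test, adjusted p = 4.67e-07). On the other side Chn2, a Rac-regulating chimaerin gene, fell 1.19-fold (edgeR, adjusted p = 0.0297). Farther off, Jazf1 rose 1.62-fold, Prr15 3.66-fold, Wipf3 2.17-fold and Fkbp14 1.22-fold, and Scrn1 fell 1.79-fold, Plekha8 1.74-fold, Mturn 1.90-fold and Znrf2 1.38-fold. The sixth gene that fell was the Gm16499 locus described above.

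**Figure D2:**
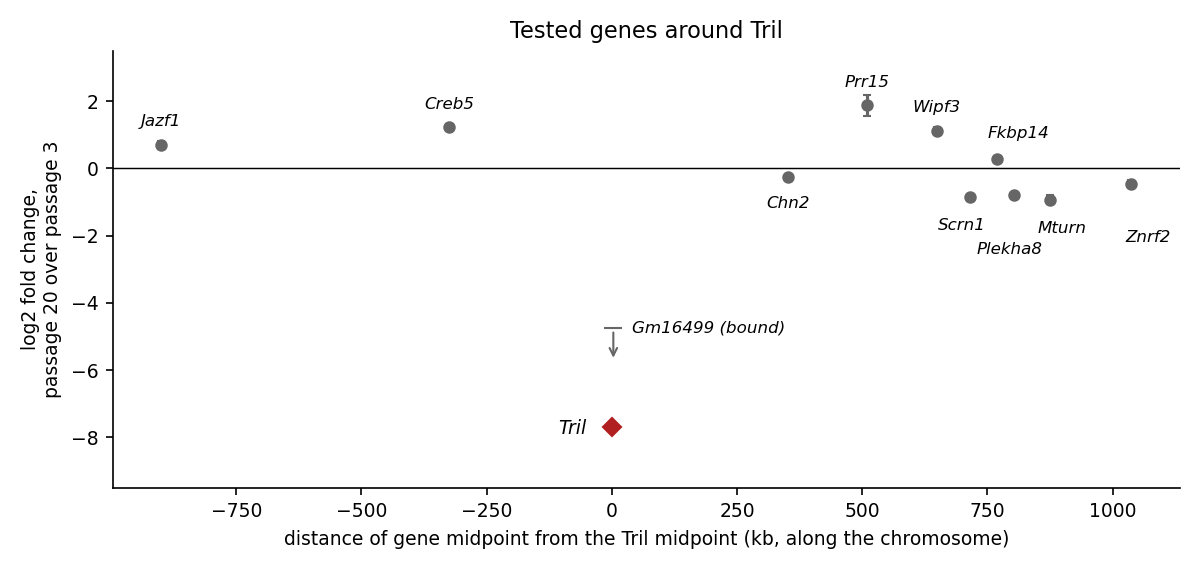
Log2 fold change of the tested genes around Tril (passage 20 over passage 3, bars give SE) against the distance of gene midpoints in kb. Tril lies at -7.68, the bar with the arrow gives the upper bound for the long noncoding Gm16499, and the other 10 genes lie between the 3.66-fold rise of Prr15 and the 1.90-fold fall of Mturn.

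The patterns most like that of Tril over the 6 libraries were sought by the distance between centred log2(CPM + 1) values among 11858 genes whose mean reached 5 CPM in their higher passage. The nearest were Cxcl14, a chemokine gene, at a distance of 0.459, and Ryr3, a calcium release channel gene, at 0.503. Cxcl14 had 227 ± 13.0 CPM at passage 3 and 2.75 ± 0.234 CPM at passage 20, and Ryr3 had 92.4 ± 4.51 and 0.595 ± 0.265 CPM. The next 3 were the homeobox genes Hoxd12, Hoxa13 and Hoxd13, at 2.05, 2.10 and 2.13. These pattern genes of distal limb and hindgut development fell from 27.7 to 0.215, from 39.2 to 0.748 and from 97.2 to 3.13 CPM. The points share their libraries, 3 against 3, so the distance mainly reads a large level at passage 3 and a small one at passage 20.

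Cd14 (ENSMUSG00000051439, chromosome 18, 36725067 to 36726798), which encodes a surface co-receptor that hands lipopolysaccharide to the receptor complex of Tlr4, was low at both passages. It stood at 0.760, 0.924 and 0.455 CPM at passage 3 and at 1.29, 2.39 and 3.12 CPM at passage 20. All passage 20 libraries were above all passage 3 libraries, but the passage 20 values spread more than 2-fold among themselves. The means were 0.713 ± 0.238 and 2.27 ± 0.925 CPM, 3.27-fold higher at passage 20 (log2 1.71, SE 0.370), from 36 and 75 counts in all.

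Ly96 (ENSMUSG00000025779, chromosome 1, 16688051 to 16709611) encodes the secreted partner of the Tlr4 product that holds lipopolysaccharide. It stood at 1.71, 1.91 and 2.17 CPM at passage 3 and at 1.58, 1.79 and 1.23 CPM at passage 20. The ranges overlapped. The means were 1.93 ± 0.232 and 1.54 ± 0.281 CPM, with a log2 fold change of -0.35 and a 95% interval from -0.88 to 0.17, so neither 0 nor a drop of moderate size is outside it.

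Tlr4 (ENSMUSG00000039005, chromosome 4, 66827584 to 66930284), the lipopolysaccharide receptor gene, was among the faintest members. It stood at 0.634, 1.29 and 1.06 CPM at passage 3, from 10, 21 and 21 counts, and at 1.78, 2.39 and 3.21 CPM at passage 20, from 18, 24 and 39 counts. Every passage 20 library lay above every passage 3 library. The means were 0.996 ± 0.335 and 2.46 ± 0.715 CPM, 2.47-fold higher at passage 20 (log2 1.31, SE 0.309). Of the genes that serve the lipopolysaccharide receptor, Cd14 and Tlr4 were thus higher at passage 20, Ly96 overlapped and Tril was lower.

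Since Cd14 and the receptor genes are typical of leukocytes, 16 markers of myeloid cells were read beside them. Ptprc, Itgam, C1qa, C1qb and C1qc were at 0 counts in all 6 libraries, and 11 of the 16 had at most 10 counts in all. Their summed level was 9.91 to 11.1 CPM at passage 3 and 10.6 to 13.9 CPM at passage 20. Csf1r, the receptor gene for colony stimulating factor, rose 1.52-fold (edgeR, adjusted p = 0.00677), and its exons overlap those of Hmgxb3 on the opposite strand, which had far more counts. A count of 0 over a passage allows up to 0.0579 CPM at passage 3 and 0.0928 CPM at passage 20. Endothelial markers summed to 6.59 to 8.34 CPM at passage 3 and to 8.55 to 8.81 CPM at passage 20, with Emcn at 0.

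The 5 genes whose pattern lay nearest to that of Tlr4, by the same distance among 11859 genes, were Il4ra, an interleukin receptor gene, at 0.274, Coro2b at 0.282, Galk1 at 0.284, Rsph3a at 0.292 and Rlf at 0.294. Il4ra had 9.25 ± 1.40 CPM at passage 3 and 17.1 ± 3.63 CPM at passage 20. All 5 had higher means at passage 20, by less than the fold of Tlr4. The 1 CPM added before the logarithm shrinks the change of a gene as faint as Tlr4. Smaller folds among genes that reach 5 CPM therefore follow from the measure. The levels of the 5 genes cannot be set beside that of Tlr4 without a length.

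Tlr2 (ENSMUSG00000027995, chromosome 3, 83836272 to 83841767), whose product recognises bacterial lipoproteins, was the receptor gene with the most counts. It stood at 21.2, 26.1 and 25.5 CPM at passage 3 and at 17.4, 18.1 and 23.4 CPM at passage 20. Passage 20 replicate 3 lay inside the passage 3 range, and the other passage 20 libraries lay below it. The means were 24.3 ± 2.64 and 19.7 ± 3.29 CPM, a log2 fold change of -0.30 (SE 0.125), which was -0.47 without passage 20 replicate 3 and -0.40 without passage 3 replicate 1, both then past the threshold. Its value lies at the edge of that threshold, and 9 of 16 alternatives kept it on the same side.

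Tlr3 (ENSMUSG00000031639, chromosome 8, 45395665 to 45411080), which encodes an endosomal receptor for double-stranded RNA, was at 1.39, 1.36 and 1.52 CPM at passage 3 and at 0.495, 1.19 and 0.247 CPM at passage 20. The passage 3 libraries were alike and the passage 20 libraries were not, since passage 20 replicate 2 lay close under the passage 3 range. The means were 1.42 ± 0.0843 and 0.645 ± 0.491 CPM, 2.28-fold lower (log2 -1.19, SE 0.410), from 22, 22 and 30 counts against 5, 12 and 3. The log2 fold change was -1.96 without passage 20 replicate 2 and -0.77 without passage 20 replicate 3. Leaving out any other library than passage 20 replicate 2 put it on the other side of the threshold, with values of -1.21, -1.23 and -1.14 without passage 3 replicates 1, 2 and 3 and -1.06 without passage 20 replicate 1.

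The other receptor genes were faint or not detected. Of 9 Toll-like receptor genes that are not among the 10, only Tlr5 and Tlr6 had enough counts to test, and both fell, with a median log2 fold change of -0.73, which was -1.67 over 5 genes with no low-count filter. Tlr5, the flagellin receptor gene, had 3.35 ± 0.460 CPM at passage 3 and 2.39 ± 0.430 CPM at passage 20, 1.40-fold lower (edgeR, adjusted p = 0.0483). Tlr6, which encodes a partner of the Tlr2 product and has the close paralog Tlr1, had 1.43 ± 0.307 and 0.732 ± 0.278 CPM, 1.97-fold lower (edgeR, adjusted p = 0.0241). Both calls depended on single libraries. That of Tlr5 was lost without passage 3 replicate 2 or 3 or passage 20 replicate 1 or 3 (log2 -0.41, -0.48, -0.41 and -0.45), and that of Tlr6 without passage 3 replicate 1 or 2 or passage 20 replicate 3 (log2 -0.97, -0.83 and -0.67). DESeq2 called neither (adjusted p = 0.157 for Tlr5 and 0.0887 for Tlr6). Tlr7, Tlr8, Tlr11 and Tlr13 had 0 counts in all libraries, Tlr1 and Tlr9 had 1 count each, and Tlr12 had 15 counts at passage 3 and 1 at passage 20, a ratio of 9.36 with a 95% counting interval of 1.44 to 394.

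Among the 5 tested co-receptor and chaperone genes that are not members, 3 rose and 2 did not pass, with a median log2 fold change of 0.71. Lbp, whose product binds lipopolysaccharide in plasma, rose from 7.80 ± 1.03 to 14.6 ± 1.46 CPM, 1.87-fold. Unc93b1, needed to carry receptors such as the Tlr3 product to endosomes, rose from 16.8 ± 1.92 to 28.2 ± 1.83 CPM, 1.68-fold. Hsp90b1, the chaperone that folds most Toll-like receptors, rose from 596 ± 15.3 to 976 ± 132 CPM, 1.64-fold (edgeR, largest adjusted p of the 3 genes 7.59e-05). With library sizes only, 3 rose and 2 fell, beside 3528 of all tested genes that rose and 8273 that fell.

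Of the adaptors, Myd88 (ENSMUSG00000032508, chromosome 9, 119335934 to 119341411), used by most Toll-like receptors and by the interleukin-1 receptor, differed little. It stood at 15.8, 15.9 and 17.0 CPM at passage 3 and at 21.1, 16.4 and 18.7 CPM at passage 20. The ranges overlapped through passage 20 replicate 2. The means were 16.2 ± 0.697 and 18.7 ± 2.34 CPM, with a log2 fold change of 0.21 and a 95% interval from -0.02 to 0.44, and it was 0.29 and past the threshold without passage 20 replicate 2. Myd88 shares 290 exonic bases with Acaa1a on the opposite strand, which had 3569 and 2459 counts beside 844 and 606 of Myd88.

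Ticam1 (ENSMUSG00000047123, chromosome 17, 56269319 to 56276786) encodes the adaptor TRIF, which the products of Tlr3 and Tlr4 use to reach the interferon regulatory factors. It stood at 30.7, 34.2 and 37.1 CPM at passage 3 and at 43.5, 40.0 and 57.4 CPM at passage 20. The groups did not overlap, and passage 20 replicate 3 was the highest library. The means were 34.0 ± 3.23 and 46.9 ± 9.21 CPM, 1.38-fold higher (log2 0.47, SE 0.133), and 0.14 on the log2 scale with library sizes only.

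Of the 4 adaptor genes outside the 10, Tirap and Sarm1 had enough counts to test and fell, with a median log2 fold change of -1.27. Ticam2, the bridge between the Tlr4 product and TRIF, had 9 counts at passage 3 and 15 at passage 20 and overlaps Tmed7, and Pik3ap1, which links the pathway to phosphoinositide 3-kinase, had 23 and 25 counts. With these included, under no low-count filter, the median over the 4 genes was 0.05, and it was -0.45 over 3 genes without passage 20 replicate 1 and -0.81 without passage 20 replicate 3. Tirap, the bridge between Myd88 and the receptors of Tlr2 and Tlr4, stood at 15.6, 17.5 and 17.3 CPM at passage 3 and at 8.02, 11.3 and 13.2 CPM at passage 20, a fall of 1.54-fold (edgeR, adjusted p = 0.00307). It shares 39 exonic bases with Srpr on the opposite strand, which had 8409 and 6324 counts. Sarm1, which encodes an NAD-cleaving enzyme of axon loss that also bears the adaptor domain, fell from 1.17 ± 0.361 to 0.291 ± 0.251 CPM, 3.78-fold. These levels rest on 62 and 10 counts in all. Sarm1 had enough counts to test only through its passage 3 libraries, so no p-value is given for it. Its log2 fold change of -1.92 became -2.95 without passage 20 replicate 3.

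Most kinases and ubiquitin ligases between adaptors and NF-κB had small fold changes. Of 19 tested members of that list, 2 rose, 9 fell and 8 did not pass, at a median log2 fold change of -0.19. Peli2, a Pellino ubiquitin ligase gene, was the exception in size and rose from 7.26 ± 0.721 to 24.6 ± 2.59 CPM, 3.38-fold (edgeR, adjusted p = 1.54e-07), whereas its relative Peli3 fell from 14.6 ± 0.836 to 7.58 ± 1.70 CPM, 1.91-fold. Map3k7, the kinase TAK1 that activates the IκB kinases, fell from 137 ± 6.26 to 101 ± 3.24 CPM, 1.35-fold, and Traf3, a ubiquitin ligase gene of the interferon branch, from 76.2 ± 4.59 to 52.7 ± 5.49 CPM, 1.45-fold (edgeR, largest adjusted p of these 3 falls 0.000133). Tab3, a partner of TAK1, had 22.3 ± 1.46 and 27.0 ± 3.65 CPM, 1.20-fold higher (edgeR, adjusted p = 0.0381). Its ranges overlapped, its log2 fold change turned from 0.27 to -0.07 with library sizes only, and the call was lost without any 1 library other than passage 20 replicate 3 (log2 0.21, 0.26 and 0.30 without passage 3 replicates 1, 2 and 3, and 0.27 and 0.17 without passage 20 replicates 1 and 2), so that 1 gene of the list rose in those settings. With library sizes only, 1 of the list rose and 15 fell, beside 3528 of all tested genes that rose and 8273 that fell.

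Nfkb1 (ENSMUSG00000028163, chromosome 3, 135584655 to 135691547), which encodes an NF-κB subunit precursor, stood at 73.4, 73.6 and 75.6 CPM at passage 3 and at 102, 94.5 and 103 CPM at passage 20. All passage 20 libraries were higher, and both passages were tight. The means were 74.2 ± 1.22 and 99.7 ± 4.58 CPM, 1.34-fold higher (log2 0.43, SE 0.0573), and the log2 fold change was 0.10 with library sizes only.

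Of the 4 other subunit genes, 3 rose and Rela did not pass, with a median log2 fold change of 0.95. Nfkb2, the precursor gene of the noncanonical branch, stood at 47.0, 51.7 and 52.2 CPM at passage 3 and at 105, 98.5 and 110 CPM at passage 20, 2.08-fold higher. Rel, the c-Rel gene, rose from 9.59 ± 0.368 to 23.2 ± 1.36 CPM, 2.41-fold, and Relb, the partner of the noncanonical subunit, from 19.6 ± 1.03 to 35.4 ± 3.85 CPM, 1.81-fold (edgeR, largest adjusted p of the 3 genes 9.4e-06). Rela, the main activating subunit, stood at 67.6 ± 1.25 and 64.1 ± 7.03 CPM (log2 -0.07, edgeR, adjusted p = 0.402), and was called lower without passage 20 replicate 3 (log2 -0.19) and with library sizes only (log2 -0.40). The promoters of Nfkb2 and Rel carry the matches printed above, and those of Map3k7 and Traf3, which fell, also hold matches.

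Nfkbia (ENSMUSG00000021025, chromosome 12, 55489410 to 55492647) encodes IκBα, which holds NF-κB in the cytoplasm and is itself a textbook target of NF-κB. It stood at 37.9, 36.3 and 37.3 CPM at passage 3 and at 169, 166 and 181 CPM at passage 20. The libraries within a passage were close together and the groups were far apart. The means were 37.2 ± 0.807 and 172 ± 7.84 CPM, 4.62-fold higher at passage 20 (log2 2.21, SE 0.0587), with 1926 and 5574 counts in all.

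In the rest of the IκB family 3 of 5 tested genes rose and 2 did not pass, with a median log2 fold change of 0.75. Nfkbiz, a nuclear member that works as a co-activator of late targets, rose from 43.4 ± 1.91 to 153 ± 20.8 CPM, 3.54-fold. Nfkbib, the IκBβ gene, rose from 20.7 ± 0.867 to 34.6 ± 1.31 CPM, 1.68-fold, and Bcl3, another nuclear member, from 21.8 ± 1.87 to 37.9 ± 7.00 CPM, 1.74-fold (edgeR, largest adjusted p of the 3 genes 0.000226). Nfkbib shares 42 exonic bases with Sirt2 on the opposite strand, which had 3812 and 3833 counts. Nfkbie stood at 9.47 ± 0.933 and 8.57 ± 0.854 CPM (edgeR, adjusted p = 0.338), and Nfkbid at 1.05 ± 0.574 and 0.560 ± 0.372 CPM (edgeR, adjusted p = 0.181). The log2 fold change of Nfkbid was -0.86, and it was called lower without passage 3 replicate 2 (-1.23) and without passage 20 replicate 3 (-1.63).

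Levels of different genes can be compared per length of their merged exons. At passage 3 Nfkbia led with 23.1 ± 0.501 CPM per kb, and Tril followed with 21.6 ± 0.224, above Ticam1 at 11.4 ± 1.08 and Tlr2 at 8.05 ± 0.875. Myd88 at 6.30 and Nfkb1 at 6.15 CPM per kb overlapped, Ly96 had 1.89, Cd14 at 0.412 overlapped Tlr3 at 0.273, and Tlr4 was last with 0.179. The other neighbours in this order did not overlap.

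At passage 20 Nfkbia led with 107 ± 4.87 CPM per kb and Ticam1 followed with 15.7 ± 3.08. Nfkb1 at 8.27 overlapped Myd88 at 7.28, which overlapped Tlr2 at 6.52 CPM per kb. Ly96 at 1.50 overlapped Cd14 at 1.31, Tlr4 had 0.442, and Tlr3 at 0.124 overlapped Tril at 0.106 in the last places. Among 15134 genes ordered by CPM per kb, Tril went from place 2257 to place 14726 and Nfkbia from place 2049 to place 407. Nfkb1 depends most on the length used, since its merged exons span 12061 bases and its longest transcript 4149. Per kb of the longest transcript it had 17.9 CPM at passage 3 and 24.0 CPM at passage 20. It then stood above Ticam1, which had 11.4 and 15.7 by that length too.

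**Figure D3:**
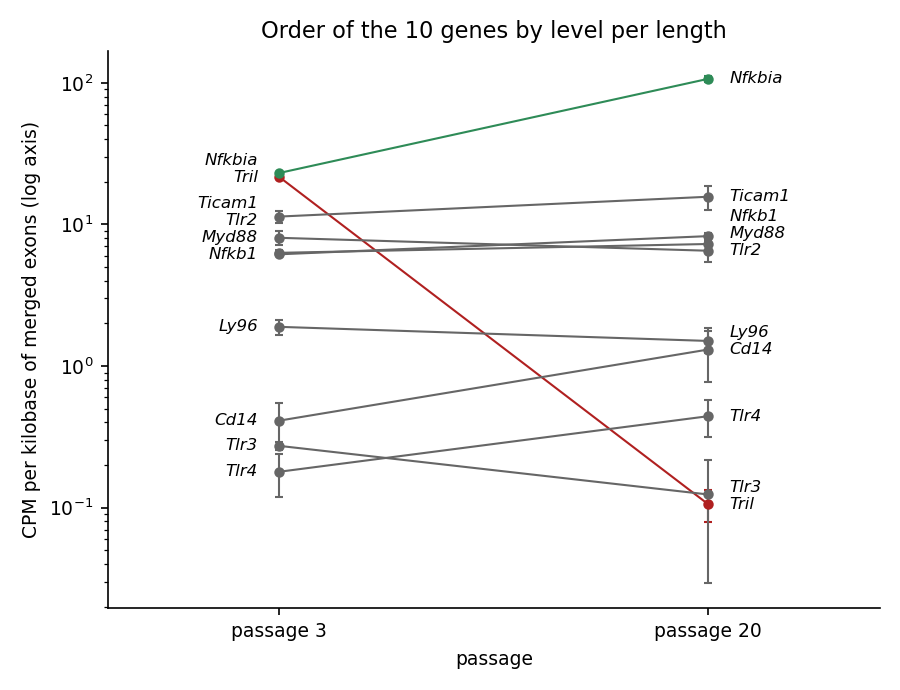
Mean CPM per kb of merged exons (log axis) of the 10 genes at passage 3 and passage 20, with bars for SD over 3 libraries. The red line of Tril drops from 21.6 to 0.106, the green line of Nfkbia climbs from 23.1 to 107, and the grey lines of the other genes stay within the same decade or cross into the next.

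The wider pathway was read list by list. Over 120 wider pathway genes in 12 lists, 89 were tested. Of these, 51 rose, 17 fell and 21 did not pass, at a median log2 fold change of 0.41 beside -0.01 for all tested genes, of which 37.0% rose and 37.3% fell. In the plot by role the target genes and negative regulators lie mostly to the right of 0 and the kinases and ligases close to it. With library sizes only, 42 rose and 30 fell, beside 3528 of all tested genes that rose and 8273 that fell in that setting.

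**Figure D4:**
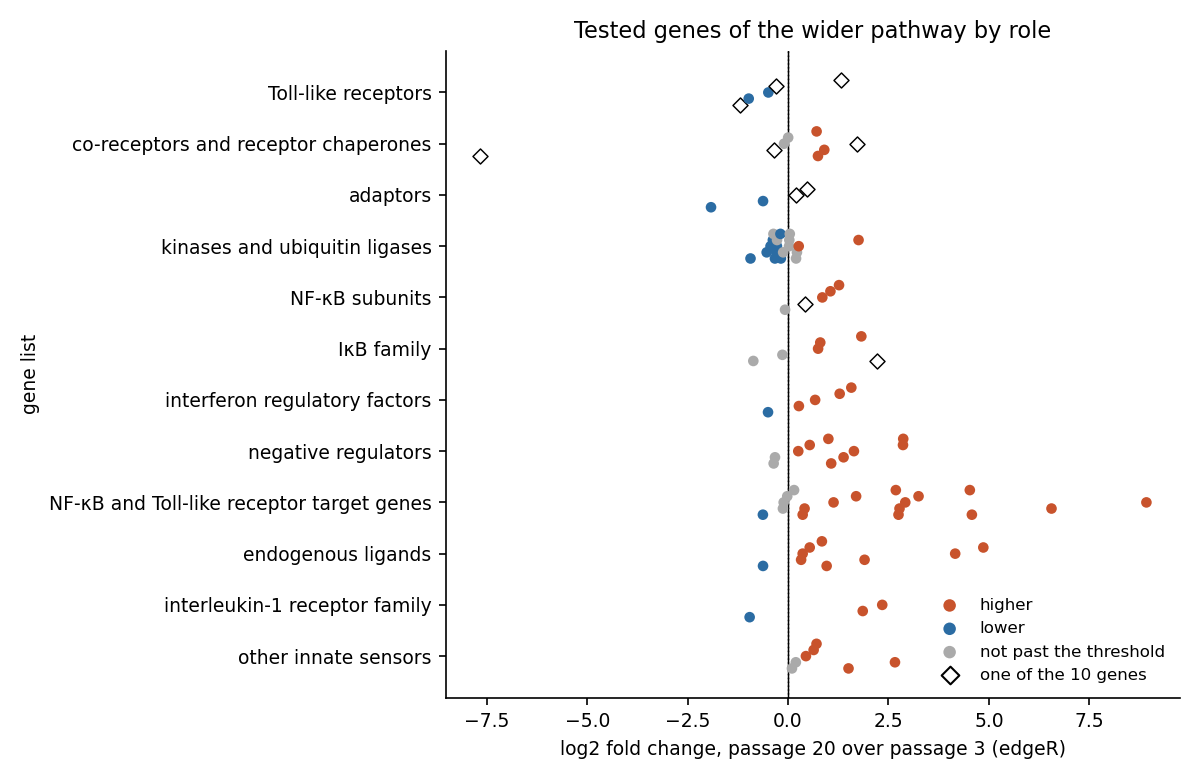
Log2 fold change (passage 20 over passage 3) of each tested gene of the 12 lists, orange for genes that rose, blue for genes that fell, grey for genes that did not pass, and open diamonds for the 10 genes. The diamond of Tril at -7.68 lies farthest to the left, Nos2 at 8.92 farthest to the right, and a dotted line marks the median of all tested genes at -0.01.

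Of 5 interferon regulatory factor genes, 4 rose and 1 fell, with a median log2 fold change of 0.67. Irf1, which responds to interferon and NF-κB, stood at 32.6, 31.5 and 31.1 CPM at passage 3 and at 80.3, 80.3 and 71.7 CPM at passage 20, 2.44-fold higher (edgeR, adjusted p = 3.13e-08). Irf8, best known from myeloid cells, rose from 1.70 ± 0.522 to 5.12 ± 1.05 CPM, 2.98-fold. The summed myeloid markers given above stood at 9.91 to 11.1 and 10.6 to 13.9 CPM, and their part in the level of Irf8 was not tested. Irf3, the factor that TRIF signalling activates, fell from 44.4 ± 4.36 to 31.4 ± 0.801 CPM, 1.41-fold (edgeR, larger adjusted p of Irf8 and Irf3 0.00023). Irf7 rose from 2.64 ± 0.619 to 4.20 ± 0.494 CPM, 1.60-fold (edgeR, adjusted p = 0.0115), and shares 45 exonic bases with Phrf1, which had 6939 and 4513 counts. Its call was lost without passage 3 replicate 1 (log2 0.51), where 2 of the 5 genes rose, and with library sizes only (log2 0.35), where 2 rose and 1 fell.

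Negative regulators rose in 8 of 10 tested genes and 2 did not pass, with a median log2 fold change of 1.04. Tnfaip3, the gene of the ubiquitin-editing enzyme A20 that shuts NF-κB signalling off, stood at 13.9, 11.9 and 14.9 CPM at passage 3 and at 99.8, 96.2 and 102 CPM at passage 20. No libraries of the passages came near each other, and the level was 7.30-fold higher (edgeR, adjusted p = 4.97e-10). Tnip2, which encodes a binding partner of A20, rose from 14.3 ± 0.528 to 37.3 ± 5.86 CPM, 2.61-fold, and Cyld, the gene of a deubiquitinase, from 25.1 ± 1.65 to 50.6 ± 6.59 CPM, 2.01-fold (edgeR, larger adjusted p of these 4.15e-06). Without passage 20 replicate 3, 8 of the list rose and 1 fell.

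Of 27 target genes of NF-κB and Toll-like receptors, 18 were tested. Of these, 13 rose, 1 fell and 4 did not pass, at a median log2 fold change of 2.19, which was 0.82 with no low-count filter and 1.39 on the authors' deposited log2 values. Nos2, inducible nitric oxide synthase, stood at 0.570, 0.308 and 0.758 CPM at passage 3 and at 277, 254 and 295 CPM at passage 20. This makes it 485-fold higher. Nos2 had enough counts to test only through its passage 20 libraries, so no p-value is given for it. Ptgs2, cyclooxygenase 2, stood at 19.3, 17.9 and 16.9 CPM at passage 3 and at 216, 154 and 142 CPM at passage 20, 9.51-fold higher, with the widest spread among the passage 20 libraries of the genes given here by library in this list. Cxcl1, a neutrophil chemokine gene with a promoter match printed above, rose from 10.0 ± 0.511 to 68.7 ± 2.72 CPM, 6.85-fold, and Icam1, an adhesion molecule gene, from 13.0 ± 0.253 to 83.7 ± 4.51 CPM, 6.42-fold (edgeR, largest adjusted p of Ptgs2, Cxcl1 and Icam1 1.12e-06).

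The target list was not uniform. Cxcl10, a chemokine gene of the interferon branch, rose from 3.98 ± 0.501 to 12.8 ± 1.30 CPM, 3.24-fold (edgeR, adjusted p = 9.32e-07). Ccl5 had 3 counts at passage 3 and 203 at passage 20, a ratio of 108 with a 95% counting interval of 36.6 to 530.3. Its fitted log2 fold change of 6.56 was 7.26 without passage 3 replicate 3 and 2.92 on the authors' deposited log2 values. Cxcl5 fell from 5.25 ± 0.260 to 3.37 ± 0.951 CPM, 1.54-fold (edgeR, adjusted p = 0.0132). Ccl2, a monocyte chemokine gene, stood at 2.79 ± 0.661 and 2.54 ± 0.342 CPM (edgeR, adjusted p = 0.623), and Vcam1, another adhesion gene, at 98.4 ± 4.82 and 91.2 ± 0.792 CPM (edgeR, adjusted p = 0.103). Vcam1 was called lower without passage 20 replicate 3 (log2 -0.12), where 13 of the list rose and 2 fell. Il6, the textbook cytokine of the pathway, had 0.318 ± 0.118 and 0.446 ± 0.179 CPM, too few counts to test. With library sizes only, 11 of the list rose and 3 fell, beside 3528 of all tested genes that rose and 8273 that fell.

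Endogenous ligands, matrix and cell proteins that have been described as activators of Toll-like receptors, rose in 8 of 9 tested genes and fell in 1, with a median log2 fold change of 0.84. The count that rose was 6 with library sizes only, with limma-voom and at a threshold of 0.01. It was also 6 without passage 3 replicate 1 or 3 or passage 20 replicate 1. The gene of the matrix proteoglycan biglycan, Bgn, stood at 503 ± 21.2 CPM at passage 3 and at 1883 ± 184 CPM at passage 20, 3.75-fold higher. Dcn, the decorin gene, rose from 326 ± 9.98 to 635 ± 53.7 CPM, 1.95-fold, and Fn1, fibronectin, from 2239 ± 37.2 to 4016 ± 477 CPM, 1.79-fold. Hmgb1, the gene of a chromatin protein released by dying cells, fell from 190 ± 5.84 to 124 ± 5.85 CPM, 1.54-fold (edgeR, largest adjusted p of the 4 genes 2.59e-06). The summed fibroblast markers were also higher at passage 20, with 5 of 6 higher and Thy1 lower as given above, and their part in the rise of the matrix genes was not tested. S100a8 and S100a9, ligands made by myeloid cells, had 0 counts in all libraries.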

How the data were processed

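RNA of 6 libraries was measured by sequencing, and the passage in the labels set the groups. The authors deposited counts, whole numbers for each gene, and, in separate files, values on a log2 scale. Per the submitters' processing notes, HISAT2 2.0.5, SAMtools, HTSeq, DESeq2 and the mouse build GRCm38 were used, but their roles, the annotation, the strand setting and the transformation behind the deposited log2 values are not stated there. These log2 values served only as an alternative.

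Names and positions were read from GENCODE M21, which has 53706 of the 53801 identifiers, on GRCm38. Genes were kept by filterByExpr (15143), scaled by TMM factors (1.12 to 1.13 at passage 3, 0.873 to 0.917 at passage 20) and tested in edgeR 4.0.16 (robust quasi-likelihood, R 4.3.3, adjusted over all tested genes). A gene that is low at 1 passage can meet this filter through the other passage alone, and its p-value is then no support. The common biological coefficient of variation was 7.05%. The test was also run on simulated counts in which few genes were changed, in random directions. Most genes passed in these libraries, so that run cannot speak for the scaling or the share of false calls here. Since the strand setting is not stated, it is not known whether reads of overlapping genes were told apart. Beside those given at the results, this holds for Irf3 with Bcl2l12, Nfkb2 with Psd, Cxcl10 with Art3, Hmgb1 with Uspl1, Bcl3 with Gm16175, Icam1 with Gm47079, Il1rap with Gm20319, Fn1 with Apol7d, Irf1 with Gm17334, Vcam1 with Gm43109 and Hsp90b1 with 1810014B01Rik.

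The members and the 12 gene lists were chosen with earlier results of these data known. All 10 members are named. In each list, up to 3 called genes per direction with the smallest adjusted p and at least 1 CPM in the higher passage are named, with all receptors, adaptors (Ticam2 and Pik3ap1 by their counts), NF-κB subunits and IκB genes and 8 target genes by name. Of 121 further pathway genes, 120 were matched. Promoter windows are those of RefSeq on GRCm38.p6, which held 100 of these genes and 6 of 10 members. A group at 0 counts is set against 3 counts over the group, and for groups with 1 to 3 counts the ratio of summed counts is given with its 95% interval. Alternatives were RLE and upper-quartile factors, library sizes only, a filter of 1 CPM in 3 libraries, no filter on low counts, DESeq2 1.42.0, limma-voom (limma 3.58.1), limma on the deposited log2 values, a threshold of 0.01, the replicate number as a block, each library left out in turn, the longest transcript as length, and Pearson correlation as likeness.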

Additional observations from a re-analysis of the deposited data

How the results depend on the processing

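Of the 10 members, 5 were higher and 2 lower. With library sizes only these counts were 3 and 4, 30 wider pathway genes fell and 42 rose, 3528 of all genes rose and 8273 fell, and the log2 fold change of Tab3 reversed to -0.065. Ticam1 and Nfkb1 then lost their calls and Tlr2 and Ly96 gained one. DESeq2 and a threshold of 0.01 each left 1 member lower, and the stricter threshold 9 wider genes lower. Leaving out 1 library gave 5 to 6 members higher and 1 to 2 lower (Tril alone or with Tlr2 or Tlr3), 47 to 51 wider genes higher and 15 to 22 lower, and 5289 to 6103 of all genes higher and 5244 to 6266 lower. Pearson correlation shared 0 of 5 nearest genes with the distance, for Tril and for Tlr4 alike. Over 16 alternatives, the log2 fold change of Tril lay between -8.00 and -5.99 and that of Nfkbia between 1.88 and 2.23. On the authors' deposited log2 values, which gave that -5.99, low genes had smaller fold changes, such as 0.86 for Cd14, 0.74 for Tlr4, -0.60 for Tlr3 and -0.82 for Sarm1. Of the log2 fold changes of named genes under these alternatives, 854 kept their direction and their side of the threshold, 36 lost a call, 17 gained one and 1 called gene, Tab3, reversed. In the other 2, genes that did not pass changed sign, namely Myd88 with library sizes only (-0.12) and Ccl2 without passage 3 replicate 1 (0.060).

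The replicate numbers are not stated to pair cultures. The deviations of same-numbered libraries from their group means had correlations of 0.014, -0.027 and 0.045, and passage 3 replicate 1 correlated best with passage 20 replicate 2 (0.038). With the replicate block, 5 members were higher and 3 lower (Tlr2 with Tril and Tlr3), 50 wider genes rose and 17 fell, and 5521 of all genes rose and 5582 fell. Levels per length moved most for Nfkb1, and receptor genes near 1 CPM rest on few counts.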

Other observations

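The interleukin-1 receptor family, whose signalling receptors use the adaptor encoded by Myd88, was also measured. Of 7 genes, 3 had enough counts, and 2 of these rose and 1 fell, with a median log2 fold change of 1.86. With no low-count filter the median over all 7 genes turned to -0.99, and on the authors' deposited log2 values it was 1.13. Il1r1, the signalling receptor gene for interleukin 1, stood at 15.0, 14.8 and 13.3 CPM at passage 3 and at 76.3, 65.6 and 76.7 CPM at passage 20, 5.08-fold higher (edgeR, adjusted p = 2.02e-09). Its shared partner Il1rap fell from 32.0 ± 1.75 to 16.5 ± 1.75 CPM, 1.94-fold, and Il1rl2, the interleukin 36 receptor gene, rose from 1.05 ± 0.343 to 3.73 ± 0.623 CPM, 3.63-fold (edgeR, larger adjusted p of these 6.49e-05). Il1b, which encodes a ligand of the receptor, had 3 counts at passage 3 and 0 at passage 20.

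Among 7 tested genes of other innate sensors, 5 rose and 2 did not pass, with a median log2 fold change of 0.64. Ripk2, the kinase behind the NOD receptors, rose from 26.6 ± 0.883 to 75.5 ± 1.03 CPM, 2.84-fold. Nod1 rose from 20.8 ± 1.61 to 32.4 ± 1.41 CPM, 1.56-fold (edgeR, larger adjusted p of Ripk2 and Nod1 3.91e-05). Nod2, from 27 and 109 counts in all, was 6.33-fold higher. It had enough counts to test only through its passage 20 libraries, so no p-value is given for it. Hspa1a, a heat shock gene of the ligand list named after its values were seen, had 611, 627 and 70 counts in the passage 20 libraries, and has the close paralog Hspa1b.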
